A study of Homo sapiens with 6 samples.

Results

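Genes that bring fatty acids into the cell, bind them, activate them and store them were compared between M5 and SW480 cells. SW480 is an established human colorectal cancer cell line, and M5 is a subpopulation of it with enhanced ability to metastasise to the liver, obtained by selection in vivo. Neither the host animal nor the number of selection rounds is given in the sources used here, and M5 is a single selected subpopulation. Both were grown in RPMI medium with 10% fetal bovine serum, so the medium carried serum lipids in both. There were 3 M5 and 3 SW480 arrays, each labelled a biological replicate, and total RNA was hybridised to Affymetrix U133 Plus 2.0 arrays. These report 1 signal for each probe set, a group of short probes for a transcript.

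The set listed 10 genes: CD36, FABP1, FABP5, SLC27A2, SLC27A4, ACSL1, ACSL3, ACSL4, ACSL5 and PLIN2. CD36 was picked on its signals in these same M5 and SW480 arrays, where it had stood out on the brighter arrays, and the other members were chosen by their function with those results known. Every difference between M5 and SW480 below is therefore a description of the members, and fitted values serve to place them among all probe sets. Probe sets were taken where the platform annotation gives a member as the only symbol. This found 20 probe sets for 9 of the 10 genes, out of 41091 probe sets for 19775 genes in all. ACSL3 was not analysed here. Of the 20 probe sets, 15 passed the filter on low signals, and all 9 genes kept at least 1.

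Long-chain fatty acids cross the plasma membrane with the help of CD36, a scavenger receptor and fatty acid translocase, and of the SLC27 family of transport proteins. Inside the cell, fatty acid-binding proteins (FABP) carry them through the cytosol, and acyl-CoA synthetases (ACSL) attach coenzyme A, which commits them to oxidation, to membrane lipids or to triglyceride. Triglyceride is kept in lipid droplets, whose surface is coated by perilipins such as PLIN2. In the intestine, this machinery serves the absorption of dietary fat, and nuclear receptors of the PPAR family control many of its genes.

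The promoters of CD36 and ACSL5 are shown because these genes had the lowest M5 signals relative to SW480 among the members. The promoter of FABP1, a textbook PPAR target, is set beside them because its window holds both of the motifs that were found. Each sequence is the 250 bases before a transcription start in RefSeq (build GRCh38.p14), written 5′ to 3′ on the strand of the gene. Capitals mark the nuclear receptor hexamer AGGTCA, or TGACCT on the other strand, and the TATA box TATAAA, or TTTATA on the other strand. The first of 6 annotated CD36 starts is at chr7:80601957-80602206 on the plus strand. The ACSL5 windows are chr10:112375018-112375267 and chr10:112375955-112376204 on the plus strand, and the FABP1 window is chr2:88128063-88128312 on the minus strand.
CD36, start 1: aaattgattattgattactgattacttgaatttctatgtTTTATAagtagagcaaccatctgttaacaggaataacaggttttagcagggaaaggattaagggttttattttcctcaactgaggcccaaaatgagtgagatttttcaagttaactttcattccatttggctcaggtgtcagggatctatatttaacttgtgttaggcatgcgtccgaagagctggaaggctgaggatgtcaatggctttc
ACSL5, start 1: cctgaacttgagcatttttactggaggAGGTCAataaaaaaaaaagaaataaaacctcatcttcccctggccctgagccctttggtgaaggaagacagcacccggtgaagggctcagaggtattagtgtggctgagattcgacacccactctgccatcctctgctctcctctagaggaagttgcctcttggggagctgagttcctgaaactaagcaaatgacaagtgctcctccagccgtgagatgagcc
ACSL5, start 2: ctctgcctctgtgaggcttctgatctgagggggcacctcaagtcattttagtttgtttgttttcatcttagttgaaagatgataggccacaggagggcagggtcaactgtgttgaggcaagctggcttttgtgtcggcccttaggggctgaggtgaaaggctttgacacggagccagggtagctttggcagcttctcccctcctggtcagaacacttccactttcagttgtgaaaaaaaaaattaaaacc
FABP1: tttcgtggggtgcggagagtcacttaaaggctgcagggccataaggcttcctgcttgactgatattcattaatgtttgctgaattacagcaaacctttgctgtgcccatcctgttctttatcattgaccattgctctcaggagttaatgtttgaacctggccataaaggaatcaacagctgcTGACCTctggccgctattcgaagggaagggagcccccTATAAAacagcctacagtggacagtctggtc

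In these letters, ACSL5 start 1 held AGGTCA from 223 to 218 bases before the start and FABP1 held it on the other strand from 68 to 63 bases before. The TATA box of FABP1 lay 31 to 26 bases before the start, and the match in CD36 start 1 lay 211 to 206 bases before, on the other strand. CD36 start 5, not printed here, held TATAAA from 216 to 211 bases before the start. The second ACSL5 window held no match. Over the 19 windows of 9 members searched (all but FABP5, ACSL3 included), AGGTCA was found in 2 and TATAAA in 4, against 12.1% and 10.7% of all 35116 windows of this length. Several windows of CD36 overlap each other. An exact tandem repeat of AGGNCA with 1 base between the copies, the arrangement that PPAR dimers bind, was found in 0 of the 19 windows. It was found in 0.268% of all windows. Repeats with a mismatch were not searched, so the absence of an exact match does not exclude a looser one. The first CD36 window was 37.2% G or C with 2 CpG pairs, and the second ACSL5 window was 48.8% with 2 CpG pairs, against a median of 58.0% over all windows. These matches describe the letters in the windows and say nothing of binding.

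The arrays differed in brightness. The 2% trimmed mean signals of M5 replicates 1, 2 and 3 were 27.24, 65.89 and 67.72, and those of SW480 replicates 1, 2 and 3 were 21.12, 53.78 and 87.09. Replicate 1 of each population is called the dimmer array, and the others are called the brighter arrays. Signals were quantile normalised to remove this difference, and all signals below are normalised unless called deposited. A control for 18S ribosomal RNA divided the arrays differently. It was high on M5 replicate 1 (3581.8) and on SW480 replicates 1 and 2 (2823.9 and 4163.4), and low on M5 replicates 2 and 3 (208.6 and 234.1) and SW480 replicate 3 (96.3). M5 replicates 2 and 3 were nearly the same: over 2135 bright probe sets the median absolute deviation of their log2 differences was 0.099, against 0.259 to 0.461 for the other pairs of arrays. The same value over 45 spike-in control probe sets was 0.107. As these arrays differed by no more than their spiked controls, every mean and SD below takes them as 1 sample (n = 2 for M5). The log2 differences, SEs and adjusted p come from the fit of all 6 arrays, which counts them separately. Nothing says that the replicates came from separate cultures, so the spread may be technical.

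In normalised signal, M5 cells had less ACSL5 than SW480 cells on every array, and CD36 was high on the brighter SW480 arrays only. PLIN2 was slightly above SW480 in M5 and FABP5 slightly below it, again in normalised signal. The deposited signals of ACSL5, PLIN2 and FABP5 overlapped between the populations, and of these only FABP5 changed direction without scaling. The other members overlapped or differed between their probe sets. In limma over all 6 arrays, 0 of the 15 kept member probe sets passed an adjusted p of 0.05, against 0.0732% of all 32768 kept probe sets. Adjusted p over the members lay between 0.0706 and 0.998 in limma. At an unadjusted p under 0.05 there were 2 of 15, both of ACSL5, against 10.3% of all. The M5 and SW480 signals did not overlap for 4 member probe sets with M5 below and 1 with M5 above, against 7.93% and 7.19% of all kept probe sets. The median log2 difference, M5 minus SW480, was 0.00 over the 9 genes (brightest kept probe set each) and -0.01 over all 14243 kept genes. Nothing is read from these shares, as the members were picked with this contrast known. In bulk RNA, fewer cells of a type and less RNA per cell cannot be told apart.

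**Figure D1:**
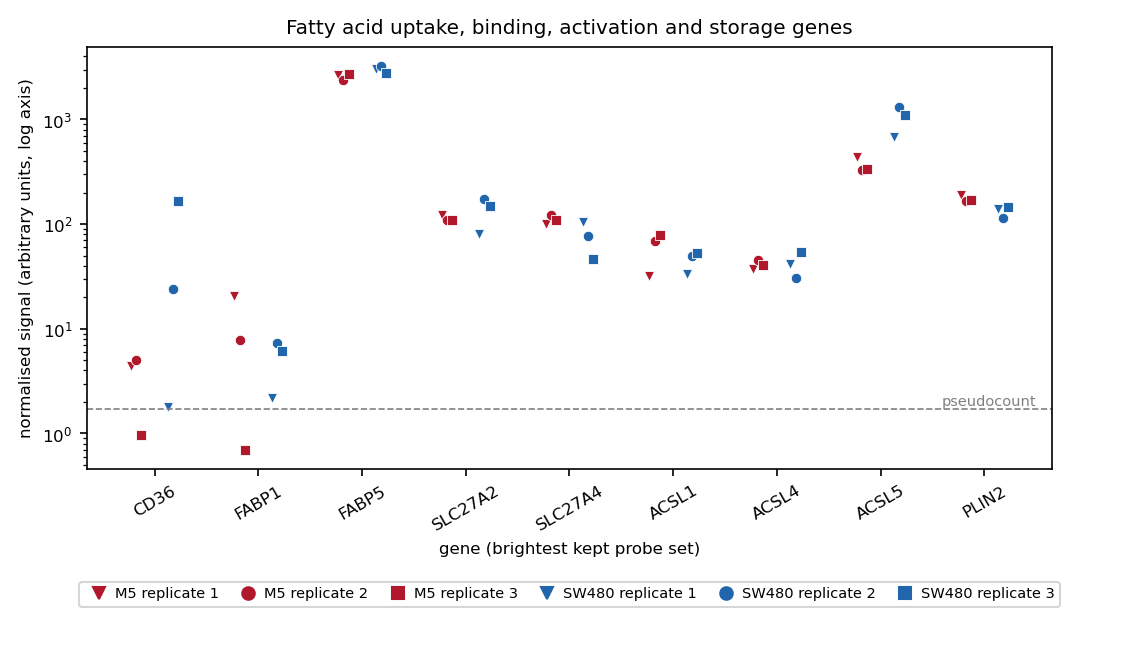
Normalised signal (log axis) of the brightest kept probe set of each of the 9 genes on each array, M5 in red on the left and SW480 in blue on the right, with 1 symbol shape per replicate number. The dashed line is the pseudocount of 1.7. ACSL5 lies lower on the M5 arrays, and CD36 spans 1.8 to 166.2 among the SW480 arrays.

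CD36 takes up long-chain fatty acids and oxidised lipoproteins. The brightest of its 5 probe sets, 206488_s_at, gave 4.43, 5.02 and 0.967 on the M5 arrays (replicates 1, 2 and 3), against 1.8, 24.1 and 166.2 on SW480 replicates 1, 2 and 3. The M5 signals were all low, and SW480 replicate 1 lay among them, so the groups overlapped. The deposited signals before normalisation were 2.8, 6.2 and 1.2 on M5 arrays and 1.1, 25.4 and 280.4 on SW480 arrays. CD36 averaged 3.71 ± 1.02 (SD, n = 2) in M5 and 64.0 ± 89.2 (SD, n = 3) in SW480, where the SD exceeded the mean. The log2 difference was -2.37 with a standard error (SE) of 1.12.

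The CD36 result rested on the brighter SW480 arrays, and most on replicate 3. On the same normalised values, without SW480 replicate 3 the log2 difference of 206488_s_at was -0.99, and without SW480 replicate 1 it was -3.78. Replicate 3 lay above replicate 2 of SW480 by 2.70 on the log2 scale. On the dimmer arrays M5 minus SW480 was 0.81, and on the brighter arrays it was -3.96. Among arrays with a high 18S control the difference was -0.63, and among those with a low one it was -5.31, which sets M5 replicates 2 and 3 against SW480 replicate 3 alone. The CD36 signal of SW480 was lowest on the dimmest and highest on the brightest array. M5 replicates 2 and 3, which were brighter than SW480 replicate 2, had CD36 signals of 5.02 and 0.967. They also differed from that array in the 18S control, at 208.6 and 234.1 against 4163.4. The part of brightness and of the 18S control in the result was not tested.

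Of the other CD36 probe sets, 209555_s_at and 228766_at showed the same arrangement. Signals of 209555_s_at were 0.233, 0.25 and 0.183 on M5 arrays and 0.483, 10.8 and 163.9 on SW480 arrays, and those of 228766_at were 1.12, 0.7 and 0.867 on M5 arrays and 0.967, 13.0 and 109.6 on SW480 arrays. For 209555_s_at the groups did not overlap, but the M5 signals and that of SW480 replicate 1 lay below the pseudocount of 1.7, where values set no firm fold. Both probe sets fell below the filter over 6 arrays because of these low signals. Log2 differences of 209555_s_at and 228766_at were -3.11 and -2.66 over all arrays, and -1.44 and -1.27 without SW480 replicate 3. Over the 6 arrays, log2 signals of 206488_s_at had a Pearson r of 0.972 with 209555_s_at and 0.974 with 228766_at.

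The remaining CD36 probe sets did not share this arrangement. Signals of 209554_at were 2.72, 14.2 and 3.83 on M5 arrays, against 10.6, 0.583 and 2.73 on SW480 arrays. Signals of 242197_x_at, which the array maker's suffix marks as open to cross-hybridisation, were 0.842, 7.68 and 8.25 on M5 arrays and 0.333, 0.867 and 14.6 on SW480 arrays. Neither passed the filter over 6 arrays, and the groups overlapped for both. The highest SW480 signal of 242197_x_at was again on replicate 3.

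**Figure D2:**
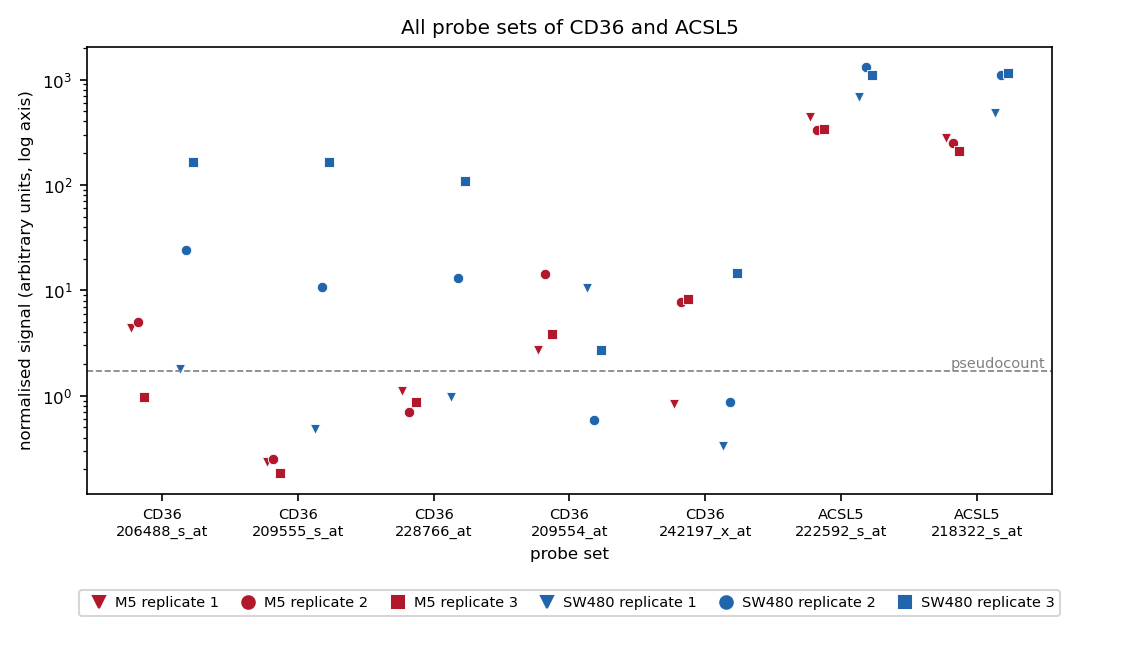
Normalised signal (log axis) of all 5 CD36 and both ACSL5 probe sets on each array, M5 in red on the left and SW480 in blue on the right, with 1 symbol shape per replicate number and the pseudocount of 1.7 as a dashed line. SW480 replicate 3 is the highest point for 206488_s_at, 209555_s_at, 228766_at and 242197_x_at, and both ACSL5 probe sets have all M5 points below all SW480 points.

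FABP1, the liver and intestinal fatty acid-binding protein, had low signals throughout. Its probe set 231693_at gave 20.8, 7.75 and 0.7 on M5 arrays and 2.18, 7.38 and 6.17 on SW480 arrays. The groups overlapped, and M5 replicates 2 and 3, nearly equal over bright probe sets, differed here by -1.98 (replicate 3 minus 2, log2). The log2 difference between the populations was 0.29 (SE 0.86), or 0.67 (SE 0.86) with the like M5 arrays taken as 1 sample. Its other probe set, 205892_s_at, did not pass the filter, with signals between 1.12 and 11.2 over the 6 arrays. Summed signals of 10 hepatocyte markers, without FABP1, were 642, 262.9 and 111.8 on M5 arrays and 399.3, 124.8 and 111.8 on SW480 arrays. They were highest on M5 replicate 1, as was 231693_at, whereas 205892_s_at was highest on M5 replicate 2. On SW480 replicate 1, second in the sums, 231693_at had its lowest SW480 signal. A few markers gave much of the highest sums: TTR (195.6) and FGB (201.8) on M5 replicate 1, and SERPINA1 (235) on SW480 replicate 1. Of the 7 kept, 4 pointed up and 3 down. TTR was above SW480 without overlap at 3.52 (SE 0.97), and SERPINA1 pointed down at -0.47 (SE 0.54). The part of these markers in the FABP1 signal was not tested.

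FABP5, the epidermal fatty acid-binding protein, which also binds retinoic acid, had strong signals with little spread. They were 2673, 2382 and 2714 on M5 arrays and 3048, 3229 and 2782 on SW480 arrays. All normalised M5 signals were below all SW480 signals, but by little: FABP5 averaged 2611 ± 88.7 (SD, n = 2) in M5 and 3020 ± 225 (SD, n = 3) in SW480. The log2 difference was -0.22 (SE 0.13), with -0.19 on the dimmer and -0.24 on the brighter arrays. The adjusted p in limma was 0.604. This direction rested on the quantile normalisation: the deposited signals overlapped, at 1366, 3242 and 3804 on M5 arrays and 1172, 2796 and 4093 on SW480 arrays, and the log2 difference was 0.11 without scaling and -0.01 with arrays centred on the median.

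SLC27A2, a very long-chain acyl-CoA synthetase and transporter also known as FATP2, had 2 kept probe sets. Signals of 205768_s_at were 86.2, 69.9 and 74.4 on M5 arrays and 88.8, 119.6 and 112.8 on SW480 arrays, without overlap and with a log2 difference of -0.46 (SE 0.26). Signals of 205769_at were 121.2, 108.5 and 110.6 on M5 arrays and 79.8, 173.4 and 148.6 on SW480 arrays. For this probe set SW480 replicate 1 was the lowest of all arrays and the groups overlapped, with a log2 difference of -0.17 (SE 0.30). On the brighter arrays alone both pointed down, at -0.68 for 205768_s_at and -0.54 for 205769_at.

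SLC27A4, the FATP4 transporter of the enterocyte, had signals of 101.3, 123.0 and 109.1 on M5 arrays and 105.2, 77.4 and 46.7 on SW480 arrays. M5 was even, while SW480 was spread widely and its replicate 1 lay within the M5 range. The log2 difference was 0.60 (SE 0.31). It was -0.05 on the dimmer and 0.93 on the brighter arrays.

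ACSL5, the acyl-CoA synthetase most typical of the intestinal epithelium, had the largest log2 difference among the kept member probe sets without overlap. Probe set 222592_s_at had signals of 438.1, 332.1 and 339.9 on M5 arrays and 684.9, 1306 and 1114 on SW480 arrays. Probe set 218322_s_at had 279.6, 248.3 and 212.0 on M5 arrays and 484.9, 1116 and 1146 on SW480 arrays. Every M5 signal lay below every SW480 signal in both, and within SW480 the dimmer array was the lowest. The deposited signals overlapped, at 207.7, 414.1 and 440.8 on M5 arrays and 245.3, 1188 and 1764 on SW480 arrays for 222592_s_at. For 218322_s_at they were 135.3, 301.3 and 262.6 on M5 arrays and 169.3, 1025 and 1815 on SW480 arrays. Without scaling the log2 difference of 222592_s_at was -1.25 (SE 0.90).

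For 222592_s_at ACSL5 averaged 387 ± 72.2 (SD, n = 2) in M5 and 1035 ± 318 (SD, n = 3) in SW480, and for 218322_s_at 254.9 ± 35.01 (SD, n = 2) in M5 and 915.4 ± 373 (SD, n = 3) in SW480. The log2 differences were -1.44 (SE 0.24) and -1.79 (SE 0.30), and the adjusted p in limma was 0.0706 for both, above the threshold. Unlike CD36, ACSL5 pointed the same way on the dimmer arrays, at -0.64 for 222592_s_at and -0.79 for 218322_s_at, against -1.84 and -2.29 on the brighter arrays. It did so also within the arrays of high 18S control (-1.11 and -1.39) and of low 18S control (-1.72 and -2.31). As the normalised signals of the groups do not overlap, the direction in any subset of the arrays is fixed. Without the filter on low signals, adjusted p in limma was 0.0441 for 222592_s_at and 0.0407 for 218322_s_at, and with a block for the dimmer arrays it was 0.046 and 0.0409. It was 0.432 for 222592_s_at once the like M5 arrays were taken as 1 sample. The range for 222592_s_at over all alternatives was 0.000673 to 1.

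ACSL1, a synthetase abundant in fat, liver and heart, had probe sets that disagreed. Signals of 201963_at were 31.9, 68.5 and 78.6 on M5 arrays and 33.4, 49.2 and 53.0 on SW480 arrays, with a log2 difference of 0.32 (SE 0.38), or 0.12 (SE 0.44) with the like M5 arrays taken as 1 sample. Signals of 207275_s_at were 8.63, 36.9 and 38.9 on M5 arrays and 22.5, 46.8 and 31.0 on SW480 arrays, with a log2 difference of -0.41 (SE 0.54). In both, the dimmer array of each population was the lowest, and the groups overlapped.

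ACSL4, which prefers arachidonic acid and shapes the membrane lipids that ferroptosis depends on, did not separate the populations. Its brightest probe set, 202422_s_at, had signals of 37.2, 45.8 and 40.3 on M5 arrays and 41.3, 30.4 and 54.1 on SW480 arrays, a log2 difference of 0.00 (SE 0.33), which turned to -0.02 without scaling. The other kept probe sets, 1557418_at and 1557419_a_at, had signals of 1.12 to 27.2 and 1.6 to 14.7 over the 6 arrays. Their log2 differences were 0.46 (SE 0.82) and -0.34 (SE 0.74), and the groups overlapped for all 3.

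PLIN2, or adipophilin, coats lipid droplets in most cell types. Probe set 209122_at had signals of 190.9, 167.0 and 169.1 on M5 arrays and 140.1, 115.7 and 144.5 on SW480 arrays. Every M5 signal was above every SW480 signal, and PLIN2 averaged 179.5 ± 16.2 (SD, n = 2) in M5 and 133.4 ± 15.5 (SD, n = 3) in SW480. The log2 difference was 0.40 (SE 0.22, adjusted p in limma 0.575), with 0.44 on the dimmer and 0.37 on the brighter arrays. The deposited signals of 209122_at overlapped, at 94.4, 198.1 and 206.3 on M5 arrays and 54.7, 120.8 and 242.3 on SW480 arrays. Without scaling its log2 difference was 0.415 (SE 0.88). The second probe set, 215895_x_at, had signals between 4.32 and 18.6 over the 6 arrays, and the groups overlapped.

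**Figure D3:**
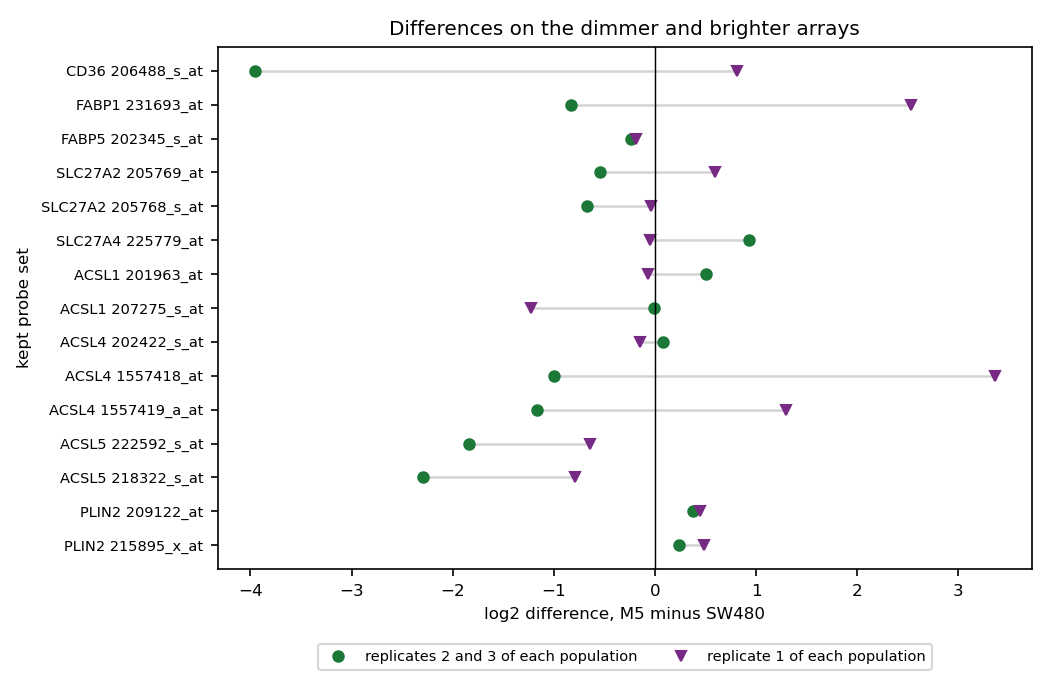
Log2 difference in normalised signal, M5 minus SW480, of the 15 kept member probe sets (down the page), as triangles for replicate 1 of each population and as circles for the mean of replicates 2 and 3. Both symbols lie left of 0 for ACSL5 and right of 0 for PLIN2, while CD36 206488_s_at lies at 0.81 on the dimmer and -3.96 on the brighter arrays.

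Fitted on the 4 brighter arrays alone, which were also normalised alone, 5 of 17 kept member probe sets passed an adjusted p of 0.05 in limma as lower in M5, against 4.23% of all kept probe sets. None of the 17 passed as higher, against 3.63% of all. The 5 were 206488_s_at, 209555_s_at and 228766_at of CD36, with log2 differences of -4.14, -4.84 and -4.25, and 218322_s_at and 222592_s_at of ACSL5, with -2.30 and -1.84. When the like M5 arrays were also merged, an alternative chosen after seeing the data, 3 were lower, both of ACSL5 and 206488_s_at of CD36, against 0.851% of all. That fit has 1 M5 sample, taken to vary as the pair of SW480 arrays does. CD36 had been picked on these arrays. Its probe sets 209555_s_at and 228766_at lay below the pseudocount on both M5 arrays and were kept here through the high SW480 signals, so the filter itself set that they were lower in M5. Probe set 206488_s_at likewise was not kept without SW480 replicate 3. Nothing is read from the counts of 5 and 3.

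The rest of the pathway was described with lists of related genes. For each gene the brightest kept probe set was used, and 0 genes passed an adjusted p of 0.05 in limma in any of the 5 lists. The lowest adjusted p in these lists was 0.18. Among all 14243 kept genes, M5 lay below SW480 without overlap in 8.45% and above it in 7.64%.

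Of 23 other transport and binding genes, 14 were kept, 2 of them without overlap below SW480 and 0 above, with a median log2 difference of -0.11. SCARB1, a scavenger receptor for high-density lipoprotein and a relative of CD36, was at 133.5, 157.2 and 175.6 on M5 arrays and 180.6, 259.9 and 224.4 on SW480 arrays. Its log2 difference was -0.50 (SE 0.23), and of its 4 kept probe sets 1552256_a_at and 201819_at had no overlap. GOT2, the mitochondrial aspartate aminotransferase also described as a membrane fatty acid-binding protein, differed by -0.19 (SE 0.17), the transporter gene SLC27A1 by -0.37 (SE 0.42) and the acyl-CoA-binding protein gene DBI by -0.02 (SE 0.17). LPL, which releases fatty acids from lipoproteins, was not kept, with signals of 6.32, 8.15 and 6.6 on M5 arrays and 3.23, 6.62 and 1.2 on SW480 arrays. The second gene without overlap was the transporter gene SLC27A3, at 7.75, 11.7 and 14.0 on M5 arrays and 24.8, 24.3 and 24.7 on SW480 arrays, named after its values were seen.

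Of 19 other genes of acyl-CoA formation, cleavage and related proteins, 14 were kept, 2 without overlap below and 1 above, with a median of 0.16. ACSL6, the synthetase of the brain, differed by 0.63 (SE 0.55), the acetyl-CoA synthetase gene ACSS2 by 0.50 (SE 0.37) and the thioesterase gene ACOT7 by 0.47 (SE 0.22). All 3 overlapped between the populations. ACSS2 signals were 83.3, 90.7 and 102.2 on M5 arrays and 116.6, 59.3 and 38.0 on SW480 arrays. Of the genes without overlap, also named after their values were seen, the thioesterase gene ACOT9 was above SW480 by 0.55 (SE 0.20), and ACSF2, of the acyl-CoA synthetase family, and ACBD3, a Golgi protein, differed by -0.40 (SE 0.29) and -0.21 (SE 0.18).

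Of 34 droplet and triglyceride genes, 26 were kept, 2 without overlap below and 2 above, with a median of -0.04. PLIN3, another droplet coat protein, differed by 0.16 (SE 0.23), the hypoxia-induced droplet protein gene HILPDA by -0.32 (SE 0.32), and PNPLA2, the adipose triglyceride lipase gene, by 0.28 (SE 0.26). The acyltransferase genes of the last step of triglyceride synthesis, DGAT1 and DGAT2, differed by 0.04 (SE 0.26) and 0.73 (SE 0.52). Another kept probe set of DGAT2, 226064_s_at, pointed the other way at -0.88 (SE 0.63), and both overlapped. The genes below SW480 were the acyltransferase genes GPAT3 and AGPAT1, at -0.97 (SE 0.41) and -0.64 (SE 0.28), and both kept probe sets of AGPAT1 were free of overlap. The genes above SW480 were MGLL and PLIN5, and all 4 were named after their values had been seen. MGLL, the monoglyceride lipase, had signals of 98.0, 71.5 and 67.9 on M5 arrays and 53.4, 18.7 and 40.2 on SW480 arrays, and its second probe set, 211026_s_at, did not overlap either. PLIN5, the perilipin of oxidative tissues, had signals of 39.4, 34.95 and 32.0 on M5 arrays and 5.52, 15.0 and 21.0 on SW480 arrays, whereas its other kept probe set differed by -0.11 (SE 0.51).

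Of 32 genes of beta oxidation, 27 were kept, with a median of -0.11, and 1 lay below and 1 above SW480 without overlap. CPT1A, whose product is rate-limiting for the entry of fatty acids into mitochondria, differed by 0.21 (SE 0.26), CPT2 by -0.12 (SE 0.35) and the very long-chain acyl-CoA dehydrogenase gene ACADVL by -0.11 (SE 0.19). CPT1A signals were 178.5, 183.1 and 140.9 on M5 arrays and 105.0, 162.1 and 172.1 on SW480 arrays. These genes overlapped between the populations. The gene below was ECHS1, the enoyl-CoA hydratase, at -0.14 (SE 0.17), and the gene above was DECR2, a peroxisomal reductase, at 0.75 (SE 0.30), both named after their values were seen.

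Of 26 genes of the PPAR pathway, 16 were kept, 1 without overlap below and 2 above, with a median of 0.16. The gene below was PPARA, the receptor that turns on fatty acid oxidation in liver. Its probe set 223437_at had signals of 2.35, 13.7 and 6.33 on M5 arrays and 44.9, 35.6 and 46.4 on SW480 arrays, a log2 difference of -2.46 (SE 0.52, adjusted p in limma 0.18). Of the 6 kept probe sets of PPARA, 223437_at, 226978_at and 223438_s_at had no overlap, with log2 differences of -2.46, -1.29 and -1.12. The other 3 overlapped, and 206870_at pointed up at 0.91 (SE 0.62). The genes above were the mitochondrial uncoupling protein genes UCP3 and UCP2, at 1.58 (SE 0.62) and 0.83 (SE 0.27), named after their values were seen, and a second probe set of UCP2 overlapped.

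PPARG, the receptor that controls fat storage and is known to activate CD36, had 1 probe set, with signals of 69.0, 62.8 and 65.6 on M5 arrays and 59.3, 140.6 and 391.8 on SW480 arrays. The M5 arrays were even, SW480 replicate 3 was the highest array and SW480 replicate 1 lay just below M5. The log2 difference of PPARG was -1.16 (SE 0.52, adjusted p in limma 0.484), with 0.21 on the dimmer and -1.85 on the brighter arrays. CD36 was also highest on SW480 replicate 3, but its M5 signals were only 0.967 to 5.02. A link between PPARG and CD36 in these cells was not tested. PPARD, the more widely expressed receptor of the family, differed by -0.19 (SE 0.23). Among targets, ANGPTL4, an inhibitor of lipoprotein lipase, had signals of 176.6, 154.8 and 157.4 on M5 arrays and 217.0, 50.5 and 78.2 on SW480 arrays. PDK4, a kinase that spares glucose, had 1.6, 11.6 and 9.13 on M5 arrays and 1.12, 22.8 and 20.5 on SW480 arrays. Neither separated the populations. For PDK4 the dimmer array of each was the lowest, and for ANGPTL4 the dimmer SW480 array was the highest of all.

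**Figure D4:**
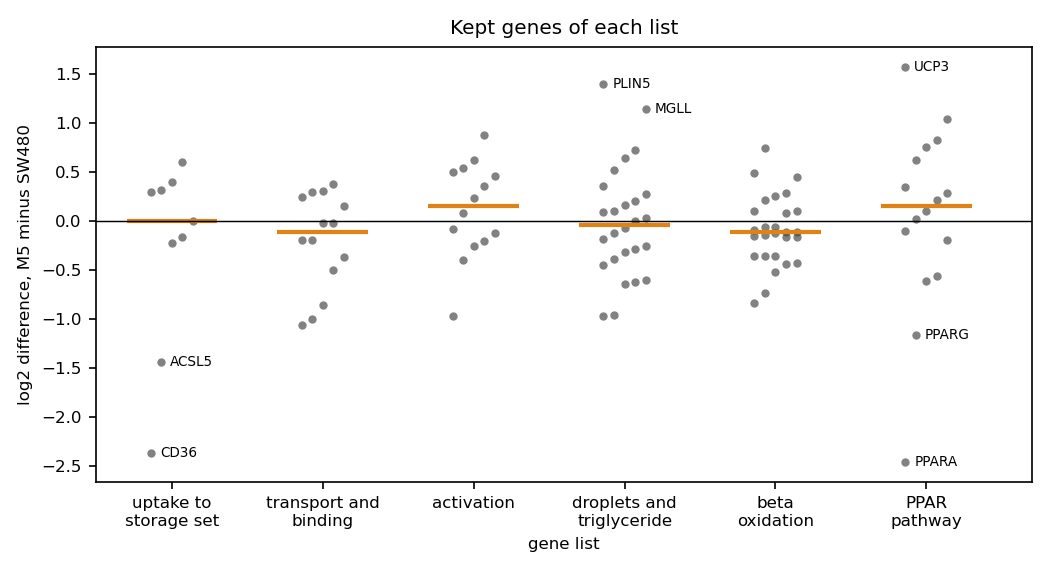
Log2 difference in normalised signal, M5 minus SW480, over 6 arrays for each kept gene (1 point per gene, brightest kept probe set) of the members and of 5 related lists, with the median of each list as an orange bar. The medians lie between -0.11 and 0.16, CD36 and ACSL5 lie lowest among the members and PPARA and PPARG lowest in the PPAR list.

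The 5 genes whose log2 signals followed the brightest CD36 probe set most closely over the 6 arrays were PPP3CB (Pearson r = 0.992), DPH5-DT (0.985), ITM2A (0.984), EIF3H (0.984) and COL27A1 (0.983). Their own changes were small beside that of CD36. PPP3CB, a calcineurin subunit gene, had signals of 207.0, 212.0 and 192.0 on M5 arrays and 184.1, 263.6 and 335.2 on SW480 arrays. ITM2A, a membrane protein gene, had 9.97, 9.13 and 4.64 on M5 arrays and 7.05, 14.9 and 31.7 on SW480 arrays. With so few arrays and M5 replicates 2 and 3 nearly the same, such values of r are a description.

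Epithelial identity was checked with 12 markers, of which 8 were kept. EPCAM, the epithelial adhesion molecule, had signals of 2878, 2424 and 2239 on M5 arrays and 2521, 2169 and 2453 on SW480 arrays, and KRT18, KRT8, KRT19 and CDH1 were also well above the filter in both. The intestinal markers KRT20, LGALS4 and VIL1, also kept, pointed down at -0.49 (SE 0.34), -0.95 (SE 0.73) and -0.18 (SE 0.55). The other 5 kept markers pointed up with overlap, KRT19 most at 0.76 (SE 0.31), and the median of the 8 was 0.05. On the brighter arrays LGALS4 and VIL1 pointed up, at 0.27 and 0.31, and KRT20 was at -0.125. KRT20 had 23.7, 38.2 and 40.6 on M5 arrays and 57.6, 43.5 and 42.8 on SW480 arrays, without overlap. The further intestinal genes CDX1, CDX2, CDH17 and GPA33 did not pass the filter, with CDX2 at 3.8, 3.95 and 3.45 on M5 arrays and 3.43, 13.4 and 8.15 on SW480 arrays. CD36 is also a gene of fat cells, macrophages, endothelium and platelets. Summed signals of 8 adipocyte markers were 54.9 to 75.2 in M5 and 57.3 to 73.0 in SW480, and those of 8 of 9 macrophage markers were 52.4 to 62.4 in M5 and 64.9 to 79.3 in SW480. Those of 8 endothelial markers were 48.0 to 100 in M5 and 24.5 to 89.9 in SW480, and those of 7 platelet markers were 61.1 to 85.3 in M5 and 31.6 to 66.7 in SW480. Of these lists, 3, 3, 4 and 4 markers were kept, and none of those passed the adjusted threshold in limma. The fat cell genes PLIN1 and FABP4 were at 1.02 and 11.1 on SW480 replicate 3, where CD36 was highest, and CD14 and TYROBP of macrophages were at 5.9 and 0.333 there. The summed macrophage markers did not overlap between the populations, but the highest M5 sum was 62.4 and the lowest SW480 sum 64.9. On SW480 replicates 1, 2 and 3 they were 74.6, 64.9 and 79.3, where CD36 was at 1.8, 24.1 and 166.2. Of the 8, 3 were highest on the same array as CD36: PTPRC, CSF1R and MSR1. The share of all probe sets highest there was not counted, so nothing is read from such counts. PTPRC, the leukocyte marker CD45, did not pass the filter. It had 5.45, 1.35 and 1.43 on M5 arrays and 1.8, 6.95 and 11.3 on SW480 arrays. CSF1R, the receptor of a macrophage growth factor, had 2.53, 12.5 and 9.77 on M5 arrays and 4.32, 14.4 and 21.9 on SW480 arrays, and the scavenger receptor gene MSR1 had 29.5, 21.9 and 20.4 on M5 arrays and 24.1, 31.9 and 34.8 on SW480 arrays. The adipocyte, endothelial and platelet lists had 1 marker each that was highest there, FABP4, TIE1 and PF4 in that order. Summed signals of 7 of 8 muscle markers were 118.4 to 138.3 in M5 and 58.6 to 95.7 in SW480. Of the 4 kept, MYL2 passed the threshold as higher in M5 (adjusted p in limma 0.0136). MYL2 made up most of the M5 sums, at 68.5, 93.1 and 94.3 on M5 arrays and 1.8, 1.22 and 7.33 on SW480 arrays. ACTC1 pointed the other way without overlap, at -1.61 (SE 0.54). MB pointed down with overlap, at -1.07 (SE 0.66), and DES was at 0.34 (SE 0.59). No marker of these 5 lists lay below the pseudocount on all 6 arrays. The part of such cells in the CD36 signal was not tested.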

How the data were processed

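Total RNA of 3 M5 and 3 SW480 replicates was measured on Affymetrix U133 Plus 2.0 arrays. The authors deposited probe set intensities on a linear scale. Per the submitters' processing notes GCOS 1.4 was used; its settings are not stated, no genome build is named, and no detection calls were used here. The members and lists were chosen with earlier results of these data known. Signals of 54675 probe sets were quantile normalised, because trimmed means differed up to 4.12-fold, and log2(signal + 1.7) was taken, where 1.7, the pseudocount, is the 20th percentile of the deposited table. Fold changes on this scale understate differences between low signals. Control probe sets (62) and the 40% of the others with the lowest mean log2 signal were dropped. The populations were compared across the 32768 kept probe sets in limma 3.58.1 (R 4.3.3; lmFit and eBayes with an intensity trend, two-sided, Benjamini-Hochberg adjusted, threshold 0.05). The script was tested on simulated data. The arrays' number limits the precision. Symbols came from the platform annotation of the array. RefSeq IDs matched all 20 member probe sets. Named genes were the members, 22 pathway genes listed by function, any list gene past the threshold, and the 5 genes most like CD36. Of the 22, 21 are reported here. Alternatives took other pseudocounts (0.425 and 6.8), no filter or 60%, other scaling, a constant variance, blocks, the probe set per gene and the arrays used. Figures were drawn with matplotlib 3.10.9.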

Additional observations from a re-analysis of the deposited data

How the results depend on the processing

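Member probe sets higher in M5 numbered 0 over 6 arrays and under all 18 alternatives, where 0 to 1191 of all probe sets tested were higher. Member probe sets lower in M5 numbered 0 over 6 arrays, against 11 of 32768 probe sets tested. They numbered 2 with no filter, against 21 of 54613, and 2 with a block for the dimmer arrays, against 32 of 32768. On the 4 brighter arrays they numbered 5, against 1387 of 32768. Averaging M5 replicates 2 and 3 on these arrays, an alternative added after seeing the data, left 1 M5 sample. Leaving out each array in turn gave 0 to 2. There were 2 (both of ACSL5) without M5 replicate 1, against 213 of 32768, and without SW480 replicate 1, against 55 of 32768. What caused this was not tested. Arrays sharing a replicate number had correlations of 0.11, 0.02 and 0.07 between their deviations from their group's mean. Arrays with unlike numbers had correlations of -0.11 to 0.08, so a pairing by replicate number was not clear. The replicate block gave 0 lower. Of 155 values of the member genes under alternatives, 151 moved by less than the spread between replicates. The sign changed in 10, none of them of CD36, ACSL5, SLC27A4 or PLIN2, 6 of them of ACSL4 and 1 of FABP5, at 0.11 without scaling. CD36 ranged from -4.14 to -1.83, and it had no value with the stricter filter or without SW480 replicate 3, where its brightest probe set was not kept. FABP1, close to the filter, had a value under 8 alternatives. ACSL5 ranged from -1.84 to -1.25. Without detection calls, signals around the pseudocount set no firm fold.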
